A study of Mus musculus with 12 samples.

Results

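The genes described here are 10 members of the NF-kB pathway among 750 genes measured on an nCounter panel: the feedback inhibitors Nfkbia and Tnfaip3, the 5 subunits Nfkb1, Nfkb2, Rel, Rela and Relb, and the 3 IKK genes Chuk, Ikbkb and Ikbkg. They were chosen by their symbols, with earlier results of the same tumors already known, and all 10 passed the filter on low values that kept 689 genes (a normalized count of at least 20 in at least 3 tumors). Because the selection was made with those values in view, the p-values below describe these tumors and are not independent support. The mRNA was measured in 12 mouse mammary tumors in 4 groups of 3. All carried K14-Cre with Brca1 f/f and Trp53 f/f, so that Cre under the keratin 14 promoter had deleted both tumor suppressors, and all were grown as transplants in the mammary fat pad of FVB/129P2 mice, a syngeneic host with an intact immune system.

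The Vehicle group received DMSO in saline intraperitoneally and saline into the tumor. The ADUS100 group received a single intratumoral injection of 40 µl with 50 µg of ADU-S100, a cyclic dinucleotide that activates STING, plus the intraperitoneal solvent. The Olaparib group received olaparib, an inhibitor of the DNA repair enzyme PARP, at 50 mg/kg daily by the intraperitoneal route, plus saline into the tumor. The Olaparib+ADUS100 group received both agents. Tumors were taken at 3 days and are named here by the number in their label, whose first digits (12 in 3 tumors, 15 in 9) are not explained. RNA came from a chunk of whole tumor, so fewer cells of a type and less RNA per cell cannot be told apart in any value below. The labels do not say that each tumor came from a separate mouse, so p-values measure only the spread between these tumors.

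The depth behind the values was uneven. Whole counts recovered from the deposited values summed to between 106206 and 1519471 per tumor, and the authors' scaling multiplied them by factors from 0.589 to 10.5. The smallest total and the largest factor belonged to Olaparib tumor 1517, and the smallest factor to Olaparib tumor 1521, so the Olaparib group held both extremes. The lowest count of any of the 10 genes was 24, for Tnfaip3 and for Rel in tumor 1517. After the authors' scaling, the log2 value of a tumor's median gene, among the 689 kept, was on average 0.21 higher in Olaparib+ADUS100, 0.41 higher in ADUS100 and 0.35 higher in Olaparib than in Vehicle. The median of the 689 log2 fold changes against Vehicle was 0.21, 0.44 and 0.45 in the same order. Fold changes are therefore also given after every tumor was shifted to the same median.

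In resting cells, NF-kB dimers are held in the cytoplasm by inhibitor proteins, of which the product of Nfkbia, IκBα, is the classical one. Signals from TNF receptors, Toll-like receptors and STING converge on the IKK complex, which marks IκBα for degradation and frees the dimers to enter the nucleus. NF-kB then induces transcription of its own inhibitors, among them Nfkbia and Tnfaip3, whose product A20 edits ubiquitin chains upstream of IKK, and this loop ends the response. Several subunit genes, such as Nfkb1, Nfkb2, Rel and Relb, are themselves targets of NF-kB.

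Because Nfkbia and Tnfaip3 are the members on which the loop closes, the 250 bases before their annotated start are shown (RefSeq, GRCm38.p6, minus strand, read in the direction of transcription). They lie at chr12:55492648-55492897 for Nfkbia and at chr10:19015411-19015660 for Tnfaip3, for which the outermost of 2 listed starts was used. Capitals mark the letters GGNNNTTCC, the ends of the kappaB consensus, on either strand.
Nfkbia: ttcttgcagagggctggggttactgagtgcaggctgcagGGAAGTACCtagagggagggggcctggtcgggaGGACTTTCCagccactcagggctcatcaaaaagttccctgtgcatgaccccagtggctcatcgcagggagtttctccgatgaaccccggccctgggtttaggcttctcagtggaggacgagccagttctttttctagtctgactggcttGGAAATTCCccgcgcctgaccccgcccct
Tnfaip3: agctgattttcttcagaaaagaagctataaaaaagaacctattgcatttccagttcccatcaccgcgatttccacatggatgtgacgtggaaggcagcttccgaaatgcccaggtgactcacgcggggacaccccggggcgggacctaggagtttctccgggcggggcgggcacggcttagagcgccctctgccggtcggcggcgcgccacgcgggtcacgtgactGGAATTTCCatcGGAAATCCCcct
Nfkbia held 3 matches, beginning 211, 178 and 29 bases before the start, and Tnfaip3 held 2, beginning 24 and 12 bases before it. Of 32851 listed mouse starts, 15.7% had at least 1 match in a window of the same length and 1.46% had at least 2. Promoters of 7 of the 10 genes were listed. Nfkb2 had 3 matches, of which 2 overlap each other, Rel and Chuk had 1 each, and Rela and Ikbkg had none in this window. No promoter was listed for Nfkb1, Relb and Ikbkb, so their sequences were not searched. A match is a description of letters and not evidence of binding.

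Nfkbia had its highest group mean in the Olaparib tumors, with a wide spread. Its normalized count was 302, 357 and 201 in the Vehicle tumors 1269, 1529 and 1536. It was 533, 401 and 397 in the ADUS100 tumors 1506, 1512 and 1513, and 532, 516 and 443 in the Olaparib+ADUS100 tumors 1251, 1270 and 1539. In the Olaparib tumors 1510, 1517 and 1521 it was 1148, 1383 and 385. On the authors' scaling all 9 treated tumors thus lay above the highest Vehicle tumor, and the Olaparib group split into 2 tumors above every other tumor and 1 tumor, 1521, just below the ADUS100 group. The log2 fold change against Vehicle was 1.60 ± 0.48 (SE, n = 3 against 3) in Olaparib, 0.83 ± 0.48 in Olaparib+ADUS100 and 0.65 ± 0.48 in ADUS100. With Benjamini-Hochberg adjustment over 689 genes in limma, the adjusted p was 0.577, 0.705 and 0.809 in that order. None passed the threshold of 0.05.

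By its unadjusted p of 0.00677 in limma, Nfkbia stood first of the 689 genes in Olaparib against Vehicle, and its fold change was larger than that of 93.6% of them. That p rests on a single spread shared by the 4 groups. The SD of its log2 value was 0.99 in Olaparib, 0.42 in Vehicle, 0.24 in ADUS100 and 0.14 in Olaparib+ADUS100. After shifting to the same median the 3 fold changes were 1.26, 0.62 and 0.24. Relative to the tumor median, the order of the tumors changed. The log2 level of Nfkbia above the tumor's median gene was 2.54, 1.72 and 1.51 in the Olaparib tumors and at most 1.41 in the other 9, so that the Olaparib group no longer overlapped any other. ADUS100 tumor 1506, at 0.44, then lay inside the Vehicle range of 0.37 to 1.09, and Olaparib+ADUS100 tumor 1539, at 1.10, lay just above it. Over the 24 alternatives run, the Olaparib fold change ranged from 1.02, with the log2 scaling factor as a covariate, to 2.17, without tumor 1521.

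**Figure D1:**
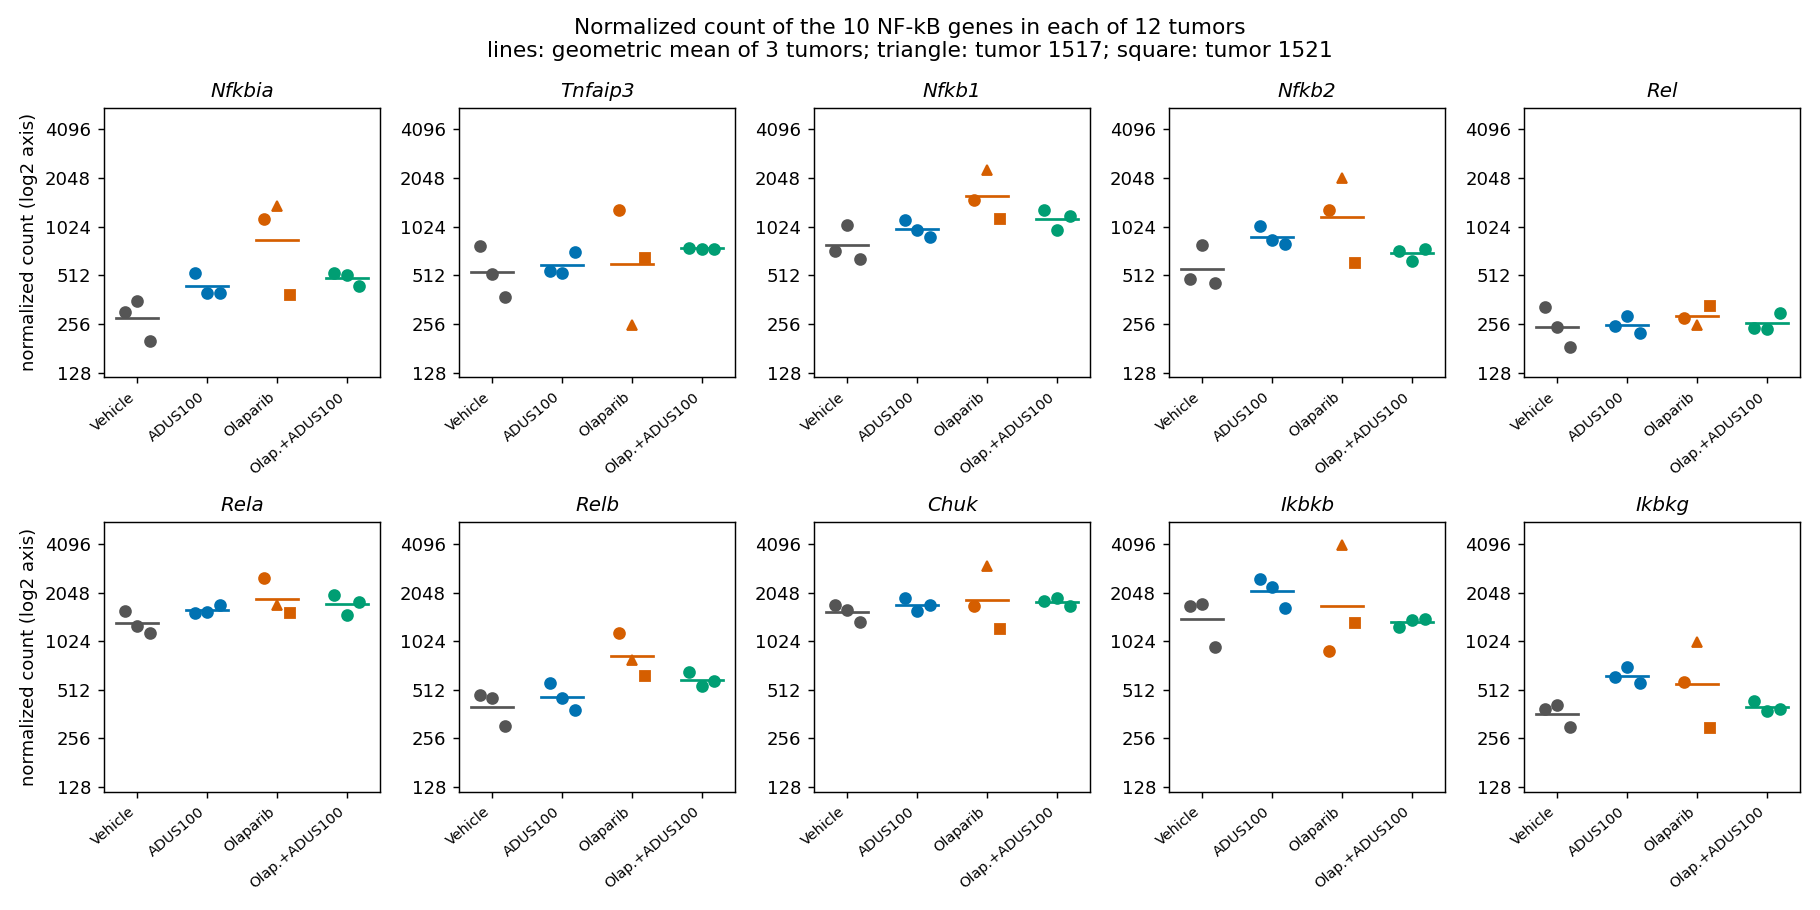
Normalized count (log2 axis) of each of the 10 genes in the 12 tumors, by treatment group, 1 point a tumor. Lines mark the geometric mean of 3 tumors, the triangle is Olaparib tumor 1517 and the square is Olaparib tumor 1521. For Nfkbia the points of the Olaparib group lie at 1148, 1383 and 385, against 201 to 357 in Vehicle.

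Tnfaip3, the other feedback gene, did not follow the same order. Its normalized count was 780, 522 and 375 in Vehicle, and 544, 530 and 712 in ADUS100. It was 1307, 252 and 653 in Olaparib tumors 1510, 1517 and 1521, and 757, 749 and 750 in Olaparib+ADUS100. The Olaparib group thus held both the highest and the lowest tumor of the series, while the Olaparib+ADUS100 tumors lay close together and above all 3 ADUS100 tumors on the authors' scaling. Relative to the tumor median, ADUS100 tumor 1513, at 2.01, lay above all 3 Olaparib+ADUS100 tumors, at 1.87, 1.95 and 1.86. The log2 fold change against Vehicle was 0.49 ± 0.54 (SE) in Olaparib+ADUS100, 0.14 ± 0.54 in ADUS100 and 0.16 ± 0.54 in Olaparib, with adjusted p of 0.969, 0.971 and 0.933 in limma. At the same median the values were 0.29, -0.27 and -0.18, so that the direction in ADUS100 and in Olaparib turned. Without tumor 1517, whose value rests on 24 counts, the Olaparib fold change was 0.79 with an adjusted p of 0.786, and without tumor 1510 it was -0.40.

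The 2 feedback genes were next set against the 8 subunit and kinase genes within each tumor, which removes the tumor's scaling factor. The difference is the mean log2 normalized count of Nfkbia and Tnfaip3 minus that of the other 8. Probes differ in efficiency, so only its variation between tumors is read. It was -0.82 ± 0.18 (SD, n = 3) in Vehicle, -0.80 ± 0.19 in ADUS100, -0.55 ± 0.77 in Olaparib and -0.43 ± 0.12 in Olaparib+ADUS100. The Olaparib+ADUS100 tumors, at -0.44, -0.30 and -0.55, lay above all Vehicle tumors, at -0.62, -0.85 and -0.98, and above all ADUS100 tumors, at -0.84, -0.96 and -0.59. Against all 8 genes, the Olaparib tumors, at 0.24, -1.30 and -0.59, spanned the range of the other 3 groups. Without tumor 1517 the Olaparib mean was -0.18 in place of -0.55, which put it above that of Olaparib+ADUS100: the difference between Olaparib+ADUS100 and Olaparib turned to -0.25, and that between Olaparib and Vehicle was 0.64. No test was made of this score.

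The feedback genes were also taken singly. For Nfkbia alone the difference was -1.28 ± 0.15 (SD) in Vehicle, -1.01 ± 0.16 in ADUS100, -0.30 ± 0.59 in Olaparib and -0.73 ± 0.18 in Olaparib+ADUS100, with no overlap between Vehicle and Olaparib or between Vehicle and Olaparib+ADUS100. For Tnfaip3 alone it was -0.35 ± 0.36, -0.58 ± 0.36, -0.80 ± 1.52 and -0.13 ± 0.08 in the same order, and Vehicle overlapped every group. The low Olaparib mean of Tnfaip3 came from tumor 1517, at -2.52 and with 24 counts, beside 0.33 and -0.21 in tumors 1510 and 1521. Without tumor 1517 it was 0.06, above the Vehicle mean. The within-tumor log2 difference of Nfkbia minus Tnfaip3 lay between -1.37 and -0.03 in 11 tumors and was 2.45 in tumor 1517.

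**Figure D2:**
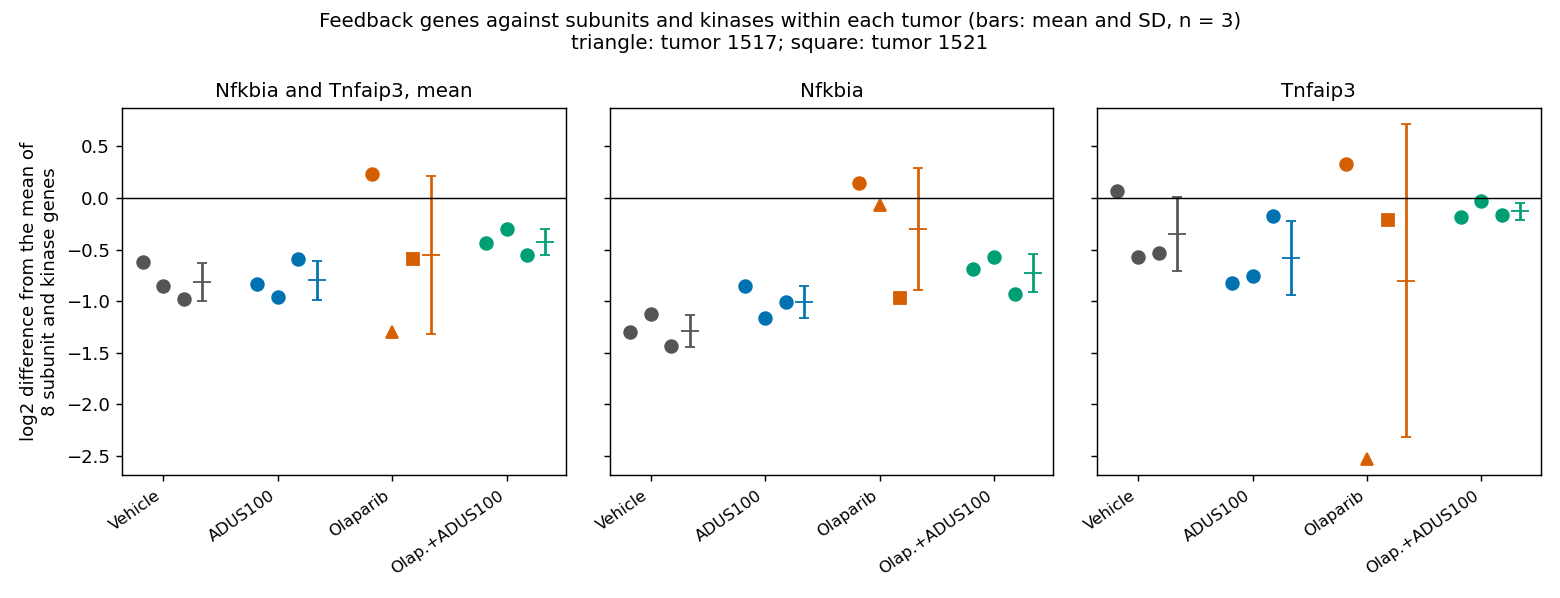
Within-tumor log2 difference between the feedback genes and the mean of the 8 subunit and kinase genes, for the pair, for Nfkbia and for Tnfaip3. Points are tumors, bars give the mean and SD of 3, the triangle is tumor 1517 and the square is tumor 1521. The Olaparib SD is 0.77 for the pair, 0.59 for Nfkbia and 1.52 for Tnfaip3.

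All 5 subunits had their highest mean log2 value in Olaparib on the authors' scaling, and Nfkb1, Nfkb2 and Relb had the larger fold changes. Nfkb1, which encodes p105, the precursor of p50, had normalized counts of 729, 1045 and 651 in Vehicle, 1131, 984 and 890 in ADUS100, 1492, 2305 and 1141 in Olaparib and 1295, 976 and 1193 in Olaparib+ADUS100. Relb, the partner of p52 in the noncanonical pathway, had 474, 455 and 305 in Vehicle, 567, 456 and 385 in ADUS100, 1148, 786 and 627 in Olaparib, and 659, 538 and 582 in Olaparib+ADUS100. For these genes all 3 Olaparib tumors lay above all Vehicle tumors, which relative to the tumor median held for Nfkb1 and not for Relb. Nfkb2, the gene of p100 and p52, had 485, 785 and 461 in Vehicle, 1040, 847 and 803 in ADUS100, 1292, 2054 and 609 in Olaparib and 724, 633 and 747 in Olaparib+ADUS100. Here tumor 1521 fell among the Vehicle tumors, while all ADUS100 tumors lay above them. Relative to the tumor median, all Olaparib tumors lay above the Vehicle tumors and ADUS100 tumor 1506 lay below them.

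The log2 fold change of Olaparib against Vehicle was 0.99 ± 0.38 (SE) for Nfkb1, 1.07 ± 0.46 for Nfkb2 and 1.03 ± 0.37 for Relb. In limma the unadjusted p was 0.0228, 0.0386 and 0.0172, and the adjusted p 0.577, 0.582 and 0.577. At the same median the fold changes were 0.65, 0.72 and 0.68. In Olaparib+ADUS100 against Vehicle the fold changes on the authors' scaling were 0.53 ± 0.38, 0.32 ± 0.46 and 0.55 ± 0.37, with adjusted p of 0.835, 0.989 and 0.823 in limma. At the same median they were 0.33, 0.12 and 0.34.

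The transactivating subunits Rela and Rel varied less, and in Olaparib against Vehicle their log2 fold changes were 0.51 and 0.22, or 0.16 and -0.13 at the same median. Rela, which encodes p65, had normalized counts of 1159 to 1565 in Vehicle, 1532 to 1705 in ADUS100, 1524 to 2527 in Olaparib and 1478 to 1990 in Olaparib+ADUS100. Rel, the gene of c-Rel, had 184 to 325 in Vehicle, 227 to 287 in ADUS100, 252 to 331 in Olaparib and 240 to 299 in Olaparib+ADUS100, and its groups overlapped in each pairing. The SD of the log2 value over 12 tumors was 0.24 for Rel and 0.29 for Rela, against 0.49 for Relb, 0.47 for Nfkb1, 0.60 for Nfkb2 and 0.76 for Nfkbia. The SD of Rel was larger than that of 2.03% of the 689 genes and the SD of Nfkbia larger than that of 42.5%.

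Of the IKK genes, Ikbkg and Ikbkb had a higher mean log2 value in ADUS100 than in Vehicle and in Olaparib+ADUS100. Ikbkg, which encodes the regulatory subunit NEMO, had normalized counts of 387, 415 and 302 in Vehicle, 615, 711 and 565 in ADUS100, 573, 1017 and 299 in Olaparib and 435, 378 and 391 in Olaparib+ADUS100. Ikbkb, the gene of the kinase IKKβ, had 1694, 1750 and 949 in Vehicle, 2481, 2228 and 1645 in ADUS100, 886, 4056 and 1328 in Olaparib and 1259, 1392 and 1395 in Olaparib+ADUS100. The 3 ADUS100 tumors lay above the Olaparib+ADUS100 tumors for each of these genes, and above the Vehicle tumors for Ikbkg. None of these separations held relative to the tumor median, where tumor 1506 was at 0.64 for Ikbkg and 2.65 for Ikbkb. The log2 fold change of ADUS100 against Vehicle was 0.78 for Ikbkg and 0.56 for Ikbkb, and 0.37 and 0.15 at the same median. Chuk, the gene of IKKα, had 1340 to 1718 in Vehicle, 1580 to 1888 in ADUS100, 1225 to 2987 in Olaparib and 1688 to 1903 in Olaparib+ADUS100. Tumor 1517 was the highest of the 12 for all 3 IKK genes on the authors' scaling and for none of them relative to the tumor median. No fold change of an IKK gene passed the test.

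**Figure D3:**
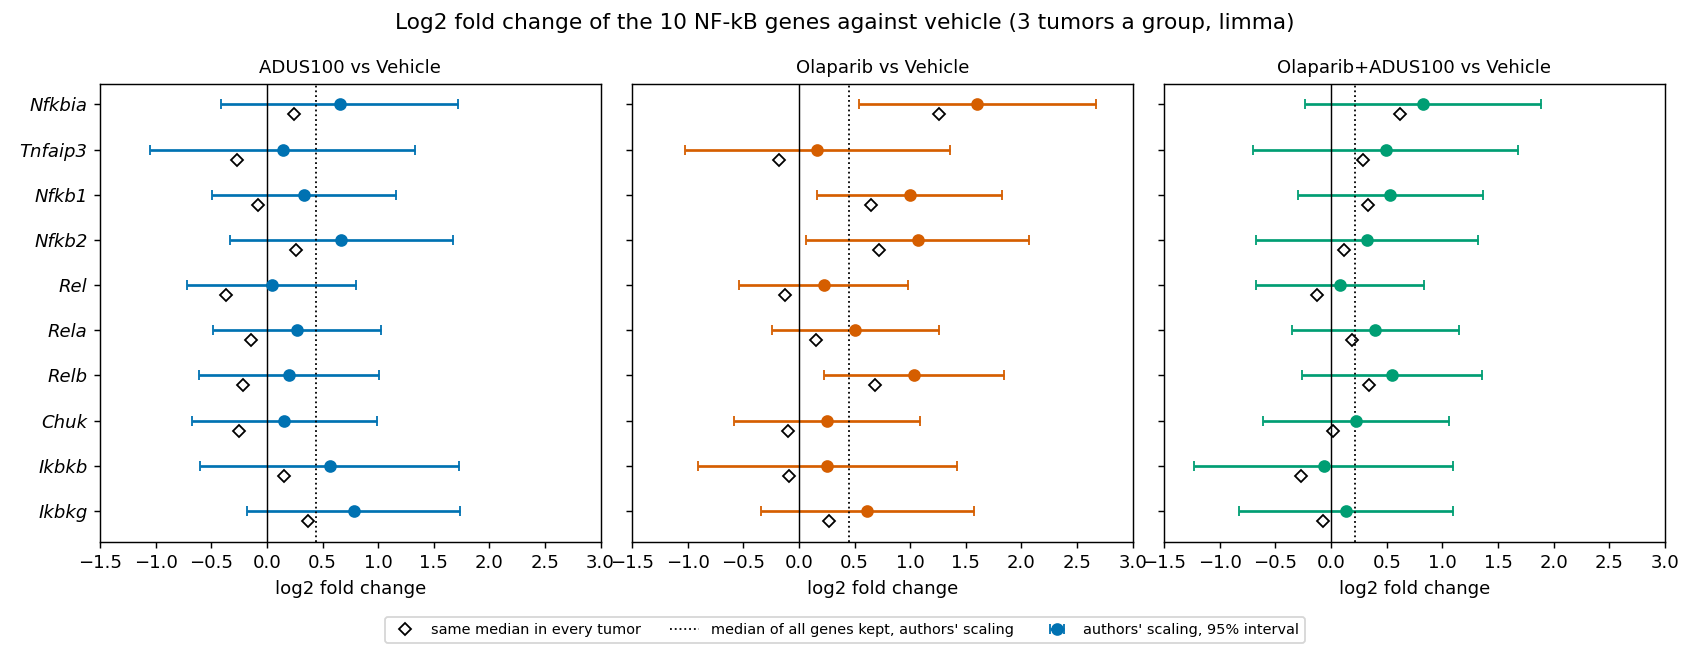
Log2 fold change of the 10 genes in each treated group against Vehicle, with filled points for the authors' scaling and bars for 95% confidence intervals from limma (3 tumors a group). Open diamonds give the fold change at the same median in every tumor, and the dotted line the median of 689 genes. The intervals of Nfkbia, Nfkb1, Nfkb2 and Relb in Olaparib lie above 0.

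Counted over the 10 genes, none passed an adjusted p of 0.05 in any of the 5 pairwise comparisons or in the interaction, and the same was true of all 689 genes (0.0% called in each comparison). The edgeR quasi-likelihood test, run on recovered counts with either scaling, also called 0 of the 10. At an unadjusted p under 0.05 in limma, 4 of the 10 were called in Olaparib against Vehicle, where 7.26% of the 689 genes were. These were Nfkbia, Relb, Nfkb1 and Nfkb2. After shifting to the same median, after quantile normalization and in edgeR with TMM, 1 of the 10 was, namely Nfkbia, where 7.26%, 6.68% and 7.84% of all genes were, so that this count was near the background. With the methods' t-test and with only the 2 groups in the fit, 1 of the 10 was, where 1.60% and 2.32% of all genes were. In these settings the gene is not named here. In the reported fit the count was 0 in Olaparib+ADUS100 against Vehicle (7.69% of all genes), 0 in ADUS100 against Vehicle (4.79%), 0 in Olaparib+ADUS100 against ADUS100 (9.14%) and 0 in Olaparib+ADUS100 against Olaparib (7.26%). In the interaction it was 1, Nfkb2, against 10.9% of all genes. With the methods' t-test the pairwise counts of 0 were 1 (86 of the 689 genes), 1 (50), 2 (122) and 0 (44) in the same order. With only the 2 groups in the fit they were 1 (107), 0 (58), 1 (157) and 0 (36).

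Complete separation of the groups was read against the same measure over all genes. In Olaparib against Vehicle, 3 of the 10 genes (Nfkbia, Nfkb1 and Relb) had every Olaparib tumor higher, against 3.77% of the 689. In ADUS100 against Vehicle 3 of the 10 (Nfkbia, Nfkb2 and Ikbkg) were separated upward, against 13.9%. In Olaparib+ADUS100 against Vehicle 2 of the 10 (Nfkbia and Relb) were, against 18.4%, a share near the background. Between Olaparib+ADUS100 and ADUS100, Tnfaip3 was separated upward, against 10.4% of all genes, and Nfkb2, Ikbkb and Ikbkg downward, against 20.9%. None of the 10 was separated downward in Olaparib+ADUS100 against Olaparib (1.74% of all genes).

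Relative to the tumor median, a scale added after seeing the data, these separations changed. In Olaparib against Vehicle they were Nfkbia, Nfkb1 and Nfkb2, against 6.1% of all genes. In ADUS100 against Vehicle none of the 10 was separated upward, against 9.0%, and in Olaparib+ADUS100 against Vehicle 1 was, Nfkbia, against 11.3%. Between Olaparib+ADUS100 and ADUS100 it was Relb upward, against 16.3%, and none downward, against 15.2%. In Olaparib+ADUS100 against Olaparib, Nfkbia, Nfkb2 and Ikbkg were separated downward, against 9.29% of all genes.

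The shift to the same median lowers every fold change against Vehicle by a constant, so the number of the 10 genes above 0 could not rise. The share of all genes above 0 after the shift was not counted. Their median was then 0.10 in Olaparib, 0.03 in ADUS100 and 0.01 in Olaparib+ADUS100. In Olaparib against Vehicle all 10 were above 0, where 74.6% of all genes were, with a median of 0.56 beside 0.45 for all genes, and 6 of 10 were above 0 at the same median. In ADUS100 against Vehicle all 10 were above 0, where 78.2% of all genes were, with a median of 0.30 beside 0.44, and 4 of 10 at the same median. In Olaparib+ADUS100 against Vehicle 9 were, where 65.3% of all genes were, with a median of 0.36 beside 0.21, and 7 at the same median. These comparisons share the Vehicle tumors.

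The interaction asks whether the effect of ADU-S100 with olaparib differs from its effect without. It was -1.43 ± 0.69 (SE) for Nfkbia, -1.42 ± 0.64 for Nfkb2 and 0.19 ± 0.77 for Tnfaip3, with adjusted p in limma of 0.439, 0.439 and 0.915. At the same median these values were -0.88, -0.86 and 0.74. For Nfkb1 and Relb the interaction was -0.79 ± 0.53 and -0.68 ± 0.52, and -0.24 and -0.13 at the same median. With the log2 scaling factor as a covariate, a setting chosen after seeing the data, the interaction was -0.30 for Nfkbia, -0.27 for Nfkb2, -0.07 for Nfkb1, -0.43 for Relb and -0.74 for Tnfaip3. Olaparib+ADUS100 against Olaparib gave -0.78 ± 0.48 for Nfkbia and 0.33 ± 0.54 for Tnfaip3, with adjusted p of 0.643 and 0.850, and Olaparib+ADUS100 against ADUS100 gave 0.17 ± 0.48 and 0.35 ± 0.54, with adjusted p of 0.866 and 0.785. With that covariate Olaparib+ADUS100 against Olaparib was -0.14 for Nfkbia and -0.19 for Tnfaip3.

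A single tumor decided these calls. Without Olaparib tumor 1521, Nfkbia and Nfkb2 passed the threshold in Olaparib against Vehicle, with log2 fold changes of 2.17 and 1.54 and adjusted p in limma of 0.0126 and 0.0436, where 7.98% of the 689 genes were called. In the interaction without it, Nfkbia, Nfkb2 and Ikbkg passed, at -2.00, -1.89 and -1.71 with adjusted p of 0.0285, 0.0394 and 0.0467, where 12.5% of all genes were called. Without Olaparib tumor 1517 no gene was called, and the Olaparib fold change was 1.25 for Nfkbia, 1.07 for Relb, 0.72 for Nfkb1 and 0.66 for Nfkb2, with adjusted p from 0.754 to 0.811.

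The rest of the pathway was described through lists fixed by role. None of the 84 list genes kept passed an adjusted p of 0.05 in any comparison in limma. Of 26 receptors and ligands, 20 were higher and 6 lower in Olaparib+ADUS100 than in Vehicle, with a median log2 fold change of 0.47 beside 0.21 for all genes. Over all 689 genes 65.3% were higher. Of these receptors and ligands 7.69% had an unadjusted p under 0.05, the same share as of all genes. Of 22 adaptors and kinases upstream of IKK, 21 were higher, with a median of 0.34. Of 28 inflammatory targets, 23 were higher, with a median of 0.72, and 10.7% had an unadjusted p under 0.05. The median of these targets was 0.78 in ADUS100 and 0.38 in Olaparib against Vehicle, beside 0.44 and 0.45 for all genes.

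The named genes of these lists were the 3 with the smallest p in Olaparib+ADUS100 against Vehicle. Ccl5, a chemokine that attracts T cells, had normalized counts of 51.3 to 207 in Vehicle and 446 to 1372 in Olaparib+ADUS100, a log2 fold change of 2.80 ± 0.70 (SE, adjusted p = 0.278 in limma). Tnf, the ligand that starts the canonical pathway and is also its target, had 43.6 to 71.6 in Vehicle, 59.9 to 132 in ADUS100, 83.8 to 232 in Olaparib and 91.0 to 135 in Olaparib+ADUS100. Its Olaparib and Olaparib+ADUS100 tumors all lay above the Vehicle tumors, and the log2 fold change of the latter was 1.11 ± 0.48 (adjusted p = 0.594). Ltb, a lymphotoxin subunit that acts through the noncanonical pathway, had 29.1 to 49.1 in Vehicle and 112 to 157 in Olaparib+ADUS100, a log2 fold change of 1.77 ± 0.53 (adjusted p = 0.278). The lowest recovered count was 8 for Ccl5, 8 for Tnf and 5 for Ltb.

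Il12b, a cytokine subunit of antigen-presenting cells, had 13.2 to 23.8 in Vehicle and 37.9 to 116 in Olaparib+ADUS100, a log2 fold change of 1.79 ± 0.53 (SE, adjusted p = 0.278 in limma), with a lowest recovered count of 5. Cd40, a receptor of antigen-presenting cells, had 26.6 to 68.4 and 68.0 to 95.9, which overlapped. Among adaptors and kinases, Bcl10, an adaptor that activates NF-kB, had 761 to 1007 and 1227 to 1445, and Ripk2, the kinase of NOD receptors, had 179 to 229 and 220 to 391. The adjusted p of these genes in limma lay between 0.278 and 0.705.

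In the STING and TBK1 branch 4 of 7 genes were higher in Olaparib+ADUS100 than in Vehicle, with a median of 0.00 beside 0.21 for all genes. The median of this branch was 0.53 in ADUS100 and 0.72 in Olaparib against Vehicle, beside 0.44 and 0.45, and -1.04 in the interaction, beside -0.55. Irf7, an interferon regulatory factor, had 201 to 2201 in Vehicle and 2460 to 3976 in Olaparib+ADUS100 (log2 fold change 2.20 ± 0.90, adjusted p = 0.504 in limma). Tmem173, the gene of STING, had 498 to 544 and 569 to 916, and Ifnb1, the interferon that this branch induces, had 9.70 to 13.6 in Vehicle, 19.97 to 31.4 in ADUS100, 12.4 to 52.4 in Olaparib and 9.07 to 20.5 in Olaparib+ADUS100, on as few as 5 counts. On the authors' scaling its ADUS100 tumors all lay above the Vehicle tumors, as they did for 13.9% of the 689 genes. The scaling factors were 2.85, 1.96 and 1.43 in ADUS100 tumors 1506, 1512 and 1513. In Vehicle tumors 1269, 1529 and 1536 they were 0.68, 1.49 and 0.69. The part of scaling in this separation was not tested. Cyld, a deubiquitinase and the 1 gene of the list of other inhibitors that was in the table, had 315 to 538 and 499 to 693. The survival targets Birc5, Bcl2 and Bcl2l1 had log2 fold changes of -0.86, 0.34 and 0.30, none past the threshold.

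Likeness between genes was measured by Pearson's r of the log2 values over 12 tumors, each value taken relative to its tumor's median gene. The tumors share group structure and unequal depth, so r is a description. The 5 genes most like Nfkbia among 688 were Nfkb2 (r = 0.86), the cholesterol transporter Abcg1 (0.86), the chemokine Ccl27a (0.86), the interferon-induced antiviral gene Rsad2 (0.80) and Nfkb1 (0.79). Relb stood 10th with 0.76, and Tnfaip3 217th with 0.32. The 5 most like Tnfaip3 were the tetraspanin gene Cd81 (0.96), the epithelial adhesion gene Epcam (0.96), Ifitm2 (0.95), Lgals3 (0.93) and the coactivator Crebbp (0.93), and Rela stood 10th with 0.92. On the values as deposited, Nfkb1 (0.92) stood first for Nfkbia and Nfkb2 (0.91) 3rd. Epcam (0.89) then stood first for Tnfaip3 and Rela 40th with 0.60, and r between Nfkbia and Tnfaip3 was 0.03.

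The likeness of the feedback genes depended on tumor 1517, which was left out after seeing the data. Over the 11 tumors without it, r between Nfkbia and Tnfaip3 was 0.84 in place of 0.32. Tnfaip3 then stood 7th for Nfkbia, and Nfkbia 22nd for Tnfaip3. No other tumor was left out for r, and tumor 1510 had the highest level of both genes, 2.54 and 2.73 above its median gene. Without tumor 1517 the genes most like Nfkbia were Rsad2 (0.91), Tnf (0.90), Relb (0.90), Abcg1 (0.90) and Nfkb2 (0.85). Cd81 still stood first for Tnfaip3 (0.96), followed by Rela (0.95), Tnfsf15 (0.94), Epcam (0.93) and Stat6 (0.93).

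**Figure D4:**
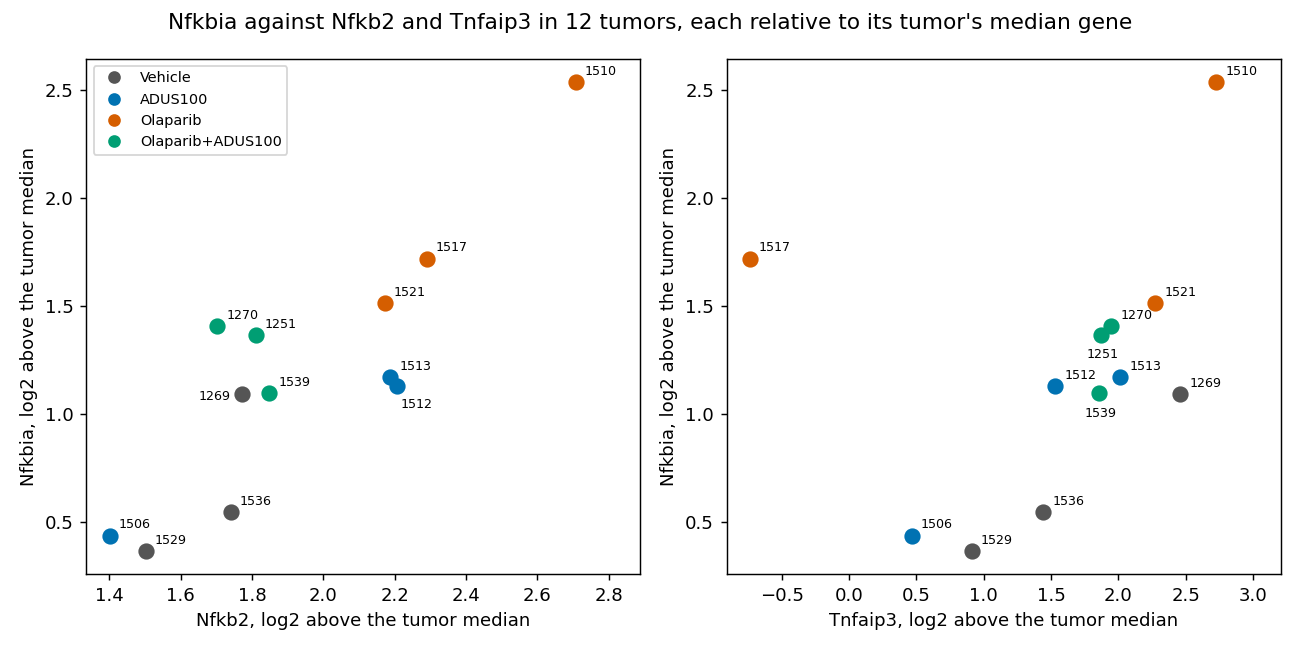
Log2 level of Nfkbia above the tumor's median gene against that of Nfkb2 (left) and of Tnfaip3 (right) in the 12 tumors, named by number and coloured by group. The 3 Olaparib tumors have the highest Nfkbia values, 1.51 to 2.54. Tumor 1517 stands apart in Tnfaip3, and r with Nfkbia is 0.32 with it and 0.84 without it.

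Markers of cell types were read beside these values, and no correlation of a marker sum with the 10 genes was computed. Epcam had normalized counts of 6724 to 13538 in Vehicle, 5759 to 11541 in ADUS100, 4580 to 15843 in Olaparib and 11669 to 14887 in Olaparib+ADUS100. Its lowest and highest tumors, 1517 and 1510, were also the lowest and highest for Tnfaip3. The sum of 3 epithelial markers, Epcam included, did not follow this at the low end: it was 12324 in tumor 1517, against a lowest value of 10802 in Vehicle and 11861 in ADUS100. The summed normalized count of 4 endothelial markers was 19167 in tumor 1517, against 325 to 6378 in the other 11. The leukocyte marker Ptprc had 152 to 510 in Vehicle, 287 to 1003 in ADUS100, 193 to 456 in Olaparib and 390 to 423 in Olaparib+ADUS100. The sum of 6 T cell markers was 81.7 to 180, 147 to 328, 119 to 513 and 285 to 457 in the same order, and the sum of 6 macrophage and monocyte markers 3498 to 5113, 3564 to 6255, 3279 to 5586 and 4578 to 6213. These ranges overlapped between Vehicle and Olaparib for all 3 measures, and the T cell sum of every Olaparib+ADUS100 tumor lay above those of Vehicle. So did the sum of 4 dendritic cell markers, which was 110 to 169 in Vehicle, 128 to 242 in ADUS100, 148 to 398 in Olaparib and 197 to 349 in Olaparib+ADUS100. The Olaparib maxima of 513 and 398 came from tumor 1517. There all 6 T cell and all 4 dendritic cell markers were at 20 counts or fewer. The sum of 5 fibroblast and matrix markers had medians of 53730 in Vehicle, 42685 in ADUS100, 16787 in Olaparib and 13942 in Olaparib+ADUS100, with ranges of 16265 to 85013, 31837 to 52820, 4300 to 20288 and 13633 to 27278. The sum of 3 NK cell markers was 21.5 to 44.6 in Vehicle, 55.6 to 299 in ADUS100, 24.2 to 304 in Olaparib and 34.8 to 92.3 in Olaparib+ADUS100. For 3 neutrophil markers it was 996 to 2172, 1872 to 7656, 513 to 3338 and 1515 to 1678 in the same order. For 4 B cell markers it was 23.9 to 62.4, 48.5 to 94.0, 18.3 to 252 and 48.6 to 89.0. In tumor 1517 all NK cell and B cell markers were at 20 counts or fewer. Of the markers, Cd79b had the lowest count, 1 in a tumor, and none was at 0 counts in all tumors. The part of cell composition in the levels of the 10 genes was not tested.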

How the data were processed

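Gene expression was measured with the nCounter PanCancer Immune Profiling panel, a probe hybridization assay, in 12 tumors grouped by the treatment in their labels. The deposited values are a signal, namely normalized counts from nSolver 4.0, in which the authors corrected for background and scaled each tumor to positive controls and housekeeping genes. Scaling factors range widely, so errors of low counts grow with the factor. Values were analysed as log2(value + 1). A gene was kept where 3 or more tumors reached 20. limma 3.58.1 (R 4.3.3) was fitted with 1 mean per group over 12 tumors, 5 pairwise comparisons and the interaction were tested, and p-values were adjusted (Benjamini-Hochberg) over 689 genes with a threshold of 0.05. The methods' t-test, the limma settings and edgeR 4.0.16 on whole counts recovered from the steps of the values (at least 99.87% whole within 0.01 of a count) were alternatives. The scripts were tested on simulated data.

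The 10 genes and all lists were chosen with earlier results of these data known. Besides them, the text names the 3 genes of each pathway list with the smallest p in Olaparib+ADUS100 against Vehicle, every list gene past the threshold in any comparison, and the 5 genes most like Nfkbia and Tnfaip3. Symbols were used as deposited. Promoter windows came from RefSeq (GRCm38.p6). Protein sequences were not used here, and 1 gene that the rule names is not reported here.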

Additional observations from a re-analysis of the deposited data

How the results depend on the processing

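With 3 tumors a group, no call over the 10 genes was past the threshold, and under every alternative other than leaving out a tumor the count of members called and of pathway list genes called stayed 0. Over the single omissions the members called ranged from 0 to 2 in Olaparib against Vehicle and from 0 to 3 in the interaction, and the list genes called from 0 to 3 in Olaparib against Vehicle, 0 to 1 in Olaparib+ADUS100 against Olaparib and 0 to 6 in the interaction, each upper value without Olaparib tumor 1521. There 3.57%, 1.19% and 7.14% of the list genes were called, beside 7.98%, 7.84% and 12.5% of all genes. Members at an unadjusted p under 0.05 in Olaparib against Vehicle numbered 4, and between 1 and 5 over the alternatives. The 5 came without tumor 1521, where 32.7% of all genes passed. Of 1420 fold changes recomputed over the 10 genes, 93 had the opposite sign to the reported fit, 0 of them for Nfkbia, 22 for Rel, 23 for Chuk and 17 for Tnfaip3.

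Tnfaip3 turned in ADUS100 against Vehicle at the same median (-0.27), by quantile normalization (-0.23) and in edgeR with TMM (-0.43), and in Olaparib against Vehicle at the same median (-0.18) and by quantile normalization (-0.18). In Olaparib+ADUS100 against Olaparib it turned with TMM (-0.062), where Nfkb2 in Olaparib+ADUS100 against Vehicle was also -0.028, and with the log2 scaling factor as a covariate (-0.19), a setting chosen after seeing the data that also gave -0.10 against ADUS100 and -0.74 in the interaction. The interaction of Tnfaip3 was -0.073 in edgeR scaled by the authors' factors and -0.23 with the number series as a covariate. The cause was not tested. Leaving out single tumors, Tnfaip3 ranged from -0.11 to 0.42 in ADUS100 against Vehicle, from -0.40 to 0.79 in Olaparib against Vehicle, from -0.30 to 0.89 in Olaparib+ADUS100 against Olaparib and from -0.44 to 0.75 in the interaction.

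The feedback genes minus the subunits and kinases depended on which gene was taken. With Nfkbia alone the difference between groups was 0.56 in Olaparib+ADUS100, 0.28 in ADUS100 and 0.99 in Olaparib against Vehicle, and -0.43 in Olaparib+ADUS100 against Olaparib, and with Tnfaip3 alone it was 0.22, -0.23, -0.45 and 0.67. Without tumor 1517, left out after seeing the data, the last 2 values of Tnfaip3 turned, to 0.41 and -0.19, and those of Nfkbia were 0.87 and -0.31. In Olaparib+ADUS100 against ADUS100 it was 0.19 with the subunits only and 0.53 without Nfkb1, Nfkb2, Rel and Relb. Depth limits low values most in tumor 1517, with 106206 counts. No paired analysis was possible because the tumor numbers in the labels are all distinct.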
